A study of Mus musculus with 30 samples.

Results

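The genes described here are 10 p53 targets and cell cycle inhibitors, *Cdkn1a*, *Cdkn2b*, *Cdkn2c*, *Mdm2*, *Ccng1*, *Bax*, *Gdf15*, *Trp53inp1*, *Phlda3* and *Eda2r*. They were taken by symbol from a table of RNA-seq counts with 55450 genes, and each symbol was found once. The samples were livers of 30 mice in 3 experiments of 10 mice, each with 5 *Cebpa* fl/fl mice without Cre and 5 hepatocyte-specific *Cebpa* knockout mice. CEBPA is a transcription factor of the mature hepatocyte, and all mice were fed a diet rich in fat, cholesterol and fructose (HFCFD).

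In the constitutive experiment (HFCFD2W), *Cebpa* ΔHep mice carried an albumin promoter-driven Cre and both genotypes received the diet for 2 weeks. In the other two experiments the Cre was inducible (*Cebpa* ΔHep,ERT2, albumin-ERT2-Cre) and was switched on by tamoxifen. HFCFD8W+T10D mice received tamoxifen for the last 10 days on the diet, and whether these days are part of the 8 weeks or follow them is not given in the sources used here. HFCFD12W+T10W mice had 12 weeks of diet and then 10 weeks of diet with tamoxifen, a total of 22 weeks. They are called the 10-day and the 10-week experiment below. The *Cebpa* fl/fl mice of both carry the same tamoxifen label but no Cre, so that effects of Cre and of *Cebpa* loss cannot be told apart. Each library came from 1 mouse. The Cre line, the length of the diet and tamoxifen changed together between the experiments. The albumin promoter directs recombination to hepatocytes, and the study describes both knockout lines as hepatocyte-specific. Recombination in other cells of the liver was not examined here, and RNA was taken from whole liver.

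p53, the product of *Trp53*, is a transcription factor kept low by MDM2, an E3 ubiquitin ligase that is itself a p53 target. When DNA damage or another stress frees p53, it raises genes that halt the cell cycle (*Cdkn1a*), promote apoptosis (*Bax*, *Phlda3*), relay signals at the cell surface (*Eda2r*) and feed back on p53 itself (*Mdm2*, *Ccng1*). CDK inhibitors of the INK4 family (*Cdkn2b*, *Cdkn2c*) block the kinases that cyclin D activates in G1. In liver, many of these genes are also set by other stress and growth signals.

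Sequences upstream of the start sites are shown for the 6 members on which the account turns, because p53 recognises a pair of adjacent decamers. They were read from RefSeq on GRCm38.p6, as the 250 bases before the annotated start, and 9 of the 10 members had an entry, *Trp53inp1* having none. Capitals mark matches to the p53 decamer, in *Cdkn1a* also to CATGNNNNNNCATG, which extends the second decamer, and in *Eda2r* to TTGCNNAA, the core of a C/EBP site. *Cdkn1a* lies on the plus strand at chr17:29090729-29090978, *Mdm2* on the minus strand at chr10:117710759-117711008, *Ccng1* on the minus strand at chr11:40755287-40755536 and *Bax* on the minus strand at chr7:45466899-45467148. *Phlda3* lies on the plus strand at chr1:135765835-135766084 and *Eda2r* on the minus strand at chrX:97377210-97377459.
Cdkn1a: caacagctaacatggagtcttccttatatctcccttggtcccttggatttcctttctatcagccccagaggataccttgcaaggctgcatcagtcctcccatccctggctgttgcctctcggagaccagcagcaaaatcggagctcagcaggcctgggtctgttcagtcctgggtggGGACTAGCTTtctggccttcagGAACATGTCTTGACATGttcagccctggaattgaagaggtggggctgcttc
Mdm2: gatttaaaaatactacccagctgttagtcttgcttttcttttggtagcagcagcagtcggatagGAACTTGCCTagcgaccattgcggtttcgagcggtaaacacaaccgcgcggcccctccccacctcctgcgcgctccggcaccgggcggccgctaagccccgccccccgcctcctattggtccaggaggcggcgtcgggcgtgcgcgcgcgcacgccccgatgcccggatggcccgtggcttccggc
Ccng1: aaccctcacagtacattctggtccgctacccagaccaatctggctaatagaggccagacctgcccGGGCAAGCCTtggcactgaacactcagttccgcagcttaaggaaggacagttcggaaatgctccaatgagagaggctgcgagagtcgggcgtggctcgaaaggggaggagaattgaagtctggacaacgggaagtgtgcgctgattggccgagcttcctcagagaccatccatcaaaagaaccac
Bax: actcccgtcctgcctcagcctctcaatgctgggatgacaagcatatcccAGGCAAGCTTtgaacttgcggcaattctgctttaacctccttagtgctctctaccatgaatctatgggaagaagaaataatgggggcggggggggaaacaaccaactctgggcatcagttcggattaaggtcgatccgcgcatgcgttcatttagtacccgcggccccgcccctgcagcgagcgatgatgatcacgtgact
Phlda3: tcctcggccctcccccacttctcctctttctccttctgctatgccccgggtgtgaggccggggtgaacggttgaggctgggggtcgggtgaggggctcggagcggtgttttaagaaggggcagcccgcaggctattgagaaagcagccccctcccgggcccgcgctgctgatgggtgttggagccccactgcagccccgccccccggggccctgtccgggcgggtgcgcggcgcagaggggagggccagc
Eda2r: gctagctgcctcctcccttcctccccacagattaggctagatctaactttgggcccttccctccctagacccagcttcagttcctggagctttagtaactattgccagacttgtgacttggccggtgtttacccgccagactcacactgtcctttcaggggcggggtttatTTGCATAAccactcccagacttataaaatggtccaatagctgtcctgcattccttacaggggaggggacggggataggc

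The *Cdkn1a* window shown held 2 matches to the decamer, GGACTAGCTT and GAACATGTCT. The second overlaps CATGTCTTGACATG, a pair of CATG cores set as CATGNNNNNNCATG, a spelling chosen after this sequence had been read. The window before a second annotated *Cdkn1a* start (chr17:29093519-29093768) held no match to any of the 3 motifs. Single exact decamers were found upstream of *Mdm2* (GAACTTGCCT), *Ccng1* (GGGCAAGCCT) and *Bax* (AGGCAAGCTT). The search allowed no mismatch, so that an adjacent decamer with a base off the pattern was not looked for in any window. Whether these matches belong to a pair is therefore not shown. No decamer was found upstream of *Phlda3* or *Eda2r*, nor in the windows of *Cdkn2b*, *Cdkn2c* and *Gdf15*, which are not shown. Of the 32851 promoters in the RefSeq table searched on both strands, 7.13% held the decamer, 0.490% held CATGNNNNNNCATG and 9.56% held TTGCNNAA. A match to these letters is a description of the window and not evidence of binding.

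The libraries held 7996128 to 10257366 counts each. Mean *Cebpa* in the knockout groups was 2.68%, 11.9% and 18.6% of the *Cebpa* fl/fl mean in the constitutive, 10-day and 10-week experiments, and knockout and *Cebpa* fl/fl mice did not overlap in any of them. Levels per mouse are given as CPM (counts scaled to a common library size) after TMM scaling, in the order of the replicate numbers, and a gene passed the test when its adjusted p was under 0.05 in edgeR. Among all genes, 952 rose and 895 fell in the constitutive knockout, 1231 and 821 in the 10-day knockout and 3411 and 2960 in the 10-week knockout. On the deposited TPM scale, where no TMM factor is applied, the median gene sat 0.11, 0.19 and 0.35 higher (log2) in the 3 knockouts and the counts became 1176 and 372, 1185 and 274, and 6284 and 873.

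Whether loss of *Cebpa* changed the 10 genes was asked within each experiment. In the constitutive knockout *Cdkn1a* and *Trp53inp1* rose and *Ccng1* fell, among 6 members with enough counts to be tested. In the 10-day knockout *Eda2r*, *Phlda3*, *Ccng1*, *Bax* and *Mdm2* rose and *Gdf15* fell, among 9 tested. In the 10-week knockout these genes moved the same way and *Cdkn2c* and, at the margin of the test, *Cdkn1a* also rose, so that 7 rose and 1 fell of 9. Over all genes tested, 8.60% rose and 8.09% fell in the constitutive experiment, 10.3% and 6.85% in the 10-day experiment and 27.4% and 23.8% in the 10-week experiment. The median log2 fold change of the tested members was 0.06, 0.65 and 1.06 in the 3 experiments, beside 0.01 over all genes in each. With a fold over 2 required as well, 2 members were higher and 0 lower in the constitutive knockout, 3 and 1 in the 10-day knockout, and 5 and 0 in the 10-week knockout. The 1 lower call, *Gdf15*, was lost with upper quartile scaling, with the replicate number as a block, on TPM, and without 10-day knockout replicate 1 or 3 or *Cebpa* fl/fl replicate 4. The 5 higher calls after 10 weeks came to 3 without *Cebpa* fl/fl replicate 2 or 3, and 1 member was called lower there without knockout replicate 3 or *Cebpa* fl/fl replicate 1 or 2. That rule was met by 1.69% and 1.38%, 4.09% and 2.01%, and 14.3% and 3.47% of all genes, higher and lower.

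**Figure D1:**
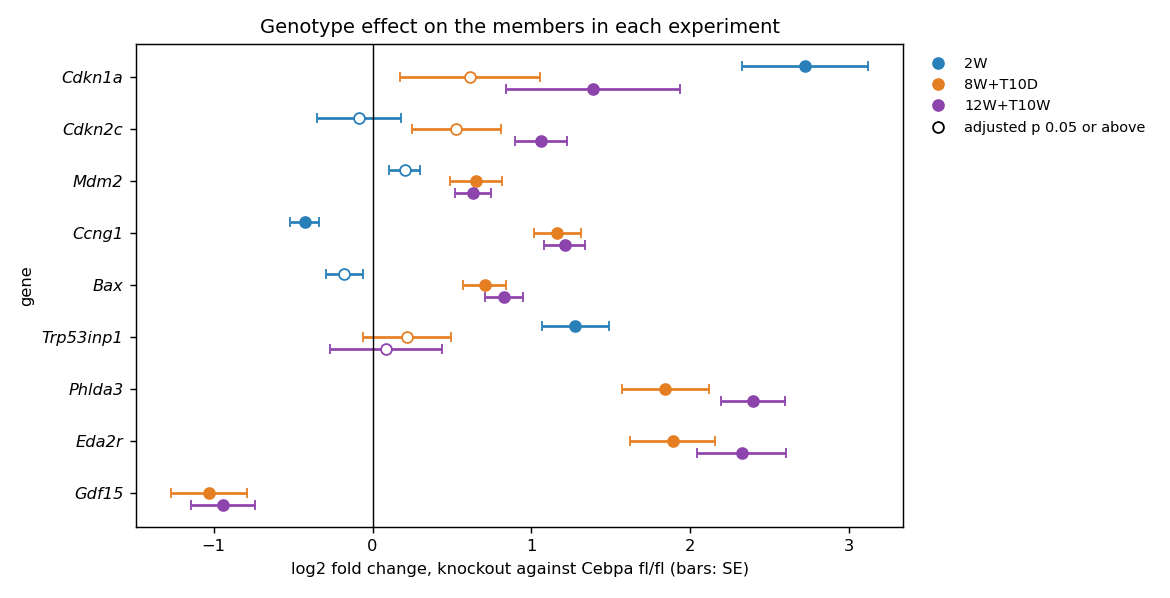
The plot gives the log2 fold change of each tested member, knockout against *Cebpa* fl/fl, with its standard error from edgeR, for the 3 experiments (5 mice per genotype). Filled points passed the test and open points did not. *Phlda3*, *Eda2r*, *Ccng1*, *Bax* and *Mdm2* lie to the right of 0 in both inducible experiments, and *Gdf15* lies to the left at -1.03 and -0.94. In the constitutive experiment *Cdkn1a* lies farthest right at 2.72, a size that rests on few counts in *Cebpa* fl/fl mice.

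The p53 target *Ccng1* (ENSMUSG00000020326.7, chr11:40748552-40755311 on the minus strand of GRCm38) encodes cyclin G1, which recruits a phosphatase to MDM2. In the 10-day experiment its level was 41.1, 53.04, 36.4, 42.1 and 39.5 CPM in *Cebpa* fl/fl mice and 66.1, 108, 107, 105 and 82.9 CPM in knockout mice. In the 10-week experiment it was 39.6, 44.3, 38.4, 29.2 and 41.6 CPM against 93.3, 86.4, 62.1, 97.5 and 94.1 CPM. All knockout mice were above all *Cebpa* fl/fl mice in both, as were 6.01% of the genes tested in the 10-day experiment and 19.6% in the 10-week experiment. The log2 fold change was 1.16 ± 0.15 (SE, adjusted p = 0.000271) and 1.21 ± 0.13 (adjusted p = 1.07e-05). In the constitutive experiment the order was the opposite, with 41.0, 43.3, 37.2, 38.1 and 49.7 CPM in *Cebpa* fl/fl and 30.6, 29.4, 30.1, 35.1 and 30.1 CPM in knockout mice. There *Ccng1* fell by 0.43 ± 0.09 on the log2 scale (adjusted p = 0.00704) and the groups did not overlap, as for 6.13% of genes lower in that knockout. On the TPM scale the groups overlapped and this fall did not pass the test (log2 fold change -0.29, adjusted p = 0.0797).

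*Bax* (ENSMUSG00000003873.11, chr7:45461697-45466898, minus strand) encodes the pore-forming protein that opens the outer mitochondrial membrane in apoptosis. It measured 11.4, 9.70, 11.5, 11.99 and 14.8 CPM in *Cebpa* fl/fl mice of the 10-day experiment and 17.05, 23.9, 17.4, 18.98 and 18.6 CPM in their knockouts. After 10 weeks the values were 8.55, 8.72, 11.9, 10.6 and 12.6 CPM against 17.3, 19.2, 16.1, 18.2 and 19.7 CPM. The genotypes were apart in both experiments, with log2 fold changes of 0.71 ± 0.14 (adjusted p = 0.00442) and 0.83 ± 0.12 (adjusted p = 9.33e-05). With constitutive Cre, *Bax* lay between 8.97 and 12.3 CPM in *Cebpa* fl/fl and between 7.57 and 9.67 CPM in knockout mice, ranges that overlap, and the log2 fold change of -0.18 ± 0.12 did not pass the test (adjusted p = 0.330).

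*Mdm2* (ENSMUSG00000020184.15, chr10:117688875-117710758, minus strand) had the lowest log2 fold changes of these 5 genes. Values after 10 days of tamoxifen were 12.5, 15.1, 13.9, 15.2 and 17.7 CPM in *Cebpa* fl/fl and 17.3, 29.04, 22.2, 18.4 and 28.97 CPM in knockout mice. After 10 weeks they were 16.6, 17.4, 17.7, 15.8 and 15.8 CPM against 26.9, 26.1, 18.5, 24.2 and 29.7 CPM. The groups overlapped slightly in the first and not in the second, where replicate 3 was the lowest knockout. Its log2 fold change was 0.65 ± 0.16 (adjusted p = 0.0164) and 0.63 ± 0.11 (adjusted p = 0.000475). On TPM the 10-day value was 0.66 and did not pass (adjusted p = 0.141). With constitutive Cre *Mdm2* ranged from 11.4 to 13.7 CPM in *Cebpa* fl/fl and from 13.2 to 16.9 CPM in knockout mice (log2 fold change 0.20 ± 0.10, adjusted p = 0.171).

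*Phlda3* and *Eda2r* had the largest fold changes among the 9 members tested in each inducible experiment, from low levels. *Phlda3* (ENSMUSG00000041801.5, chr1:135766119-135769136, plus strand) encodes a small protein that keeps the kinase AKT from the membrane. In *Cebpa* fl/fl mice of the 10-day experiment it stood at 3.13, 1.68, 1.74, 1.32 and 1.77 CPM, and in the knockouts at 5.06, 9.05, 9.10, 5.69 and 5.32 CPM. In the 10-week experiment the *Cebpa* fl/fl values were 2.02, 1.36, 2.18, 0.918 and 1.51 CPM and the knockout values 8.19, 8.31, 6.76, 7.94 and 9.79 CPM. No knockout mouse reached down to the *Cebpa* fl/fl range, and the log2 fold change was 1.844 ± 0.27 (adjusted p = 0.000703) after 10 days and 2.40 ± 0.20 (adjusted p = 1.34e-06) after 10 weeks. On TPM the 10-day groups overlapped. The 10-week *Cebpa* fl/fl mice had 8 to 19 counts of *Phlda3*, not all of them at 10. It thus entered that test partly through the knockouts, and the size of its rise there rests on few counts.

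*Eda2r* (ENSMUSG00000034457.10, chrX:97333840-97377216, minus strand) encodes a receptor of the TNF receptor family for ectodysplasin A2. Its 10-day values were 2.55, 4.01, 2.43, 1.42 and 3.94 CPM in *Cebpa* fl/fl and 6.46, 13.4, 11.4, 10.2 and 11.02 CPM in knockout mice. After 10 weeks they were 2.02, 2.72, 2.76, 0.804 and 1.62 CPM against 10.03, 8.96, 5.66, 12.04 and 11.7 CPM. The genotypes did not overlap in either experiment, and the log2 fold change was 1.89 ± 0.27 (adjusted p = 0.00056) and 2.32 ± 0.28 (adjusted p = 2.36e-05). With 7 to 24 counts per 10-week *Cebpa* fl/fl mouse, *Eda2r* also entered that test partly through the knockouts, and the size of its rise rests on few counts. Both genes were, in the constitutive experiment, too low to enter the test. *Phlda3* was between 0.445 and 1.14 CPM in *Cebpa* fl/fl and between 0.118 and 0.940 CPM in knockout mice, and *Eda2r* between 0.426 and 0.828 CPM and between 0 and 1.02 CPM, so that the genotypes overlapped for both.

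**Figure D2:**
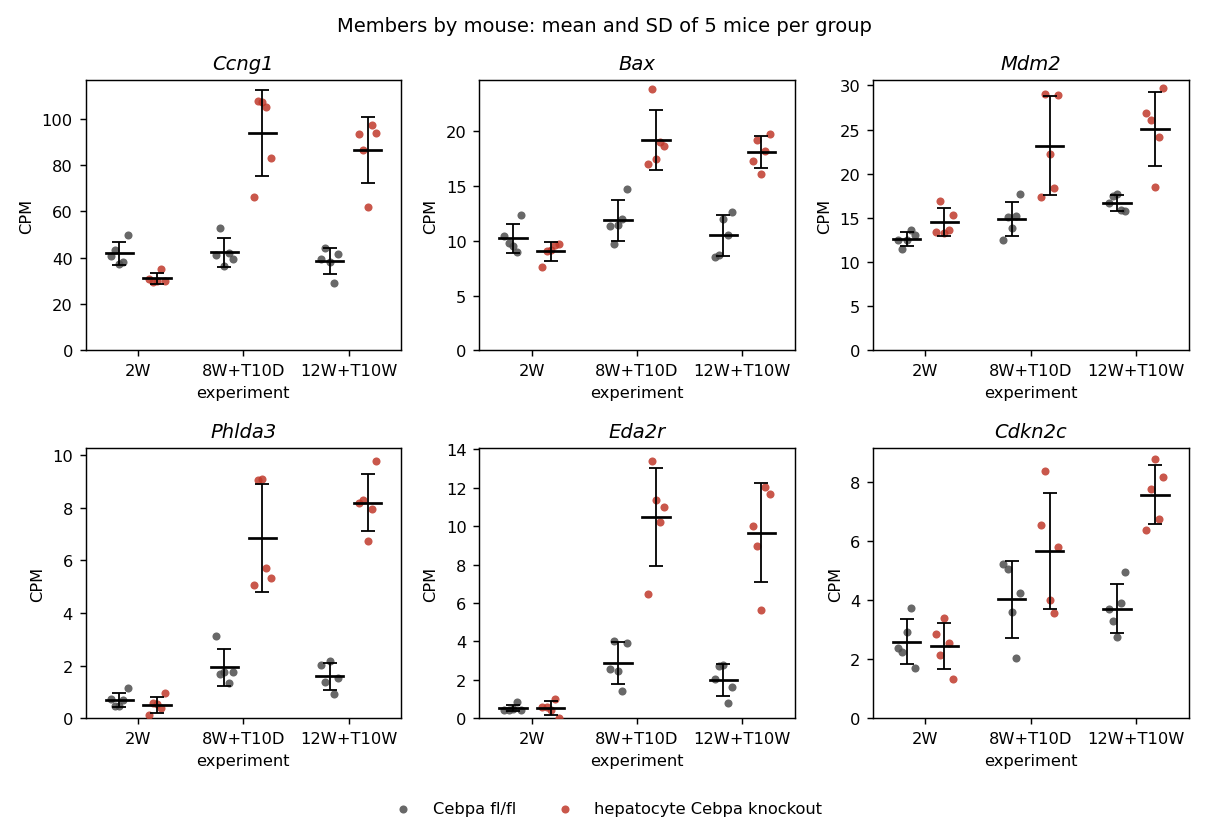
The panels show the CPM of *Ccng1*, *Bax*, *Mdm2*, *Phlda3*, *Eda2r* and *Cdkn2c* in each mouse of the 6 groups, with the group mean and SD (5 mice each). In the inducible experiments the knockout mice of *Ccng1*, *Bax*, *Phlda3* and *Eda2r* lie above every *Cebpa* fl/fl mouse, while in the constitutive experiment *Ccng1* lies below.

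*Cdkn1a* (ENSMUSG00000023067.14, chr17:29090976-29100727, plus strand) encodes p21, which binds and inhibits cyclin-CDK complexes. In the constitutive experiment it was barely expressed in *Cebpa* fl/fl mice, at 1.48, 1.19, 1.87, 1.52 and 1.14 CPM (8 to 16 counts), and reached 3.79, 16.4, 6.35, 13.3 and 8.33 CPM (32 to 146 counts) in knockout mice. Every knockout mouse was above every *Cebpa* fl/fl mouse, as for 6.33% of the genes tested, and the log2 fold change was 2.72 ± 0.40 (adjusted p = 0.000555). The size of this rise rests on *Cebpa* fl/fl values near the floor. Some of these mice were under 10 counts, so that *Cdkn1a* entered the test partly through the knockouts in which it was high. After 10 days of tamoxifen the *Cebpa* fl/fl mice already had 47.6, 82.7, 19.1, 44.9 and 118 CPM and the knockouts 54.8, 68.7, 118, 184 and 49.6 CPM. These groups overlapped over most of their range (log2 fold change 0.61 ± 0.44, adjusted p = 0.384).

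After 10 weeks *Cdkn1a* was 12, 10.4, 37.8, 9.64 and 65.5 CPM in *Cebpa* fl/fl mice and 50.7, 55.5, 24.6, 96.6 and 120.4 CPM in knockout mice. *Cebpa* fl/fl replicates 3 and 5 lay inside the knockout range. The rise of 1.39 ± 0.55 (log2) was just past the test (adjusted p = 0.0488) and it did not pass in DESeq2 (1.37, adjusted p = 0.0832). When 1 mouse was left out, it passed only without *Cebpa* fl/fl replicate 5 or knockout replicate 3, with log2 fold changes from 1.10 to 2.02 and adjusted p from 0.00531 to 0.128 over the 10 fits.

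*Trp53inp1* (ENSMUSG00000028211.11, chr4:11156431-11174379, plus strand) encodes a stress-induced p53 cofactor that also takes part in autophagy. With constitutive Cre it rose from 37.5, 38.7, 32.9, 50.6 and 59.9 CPM in *Cebpa* fl/fl to 84.4, 84.3, 79.7, 154 and 128 CPM in knockout mice, without overlap (log2 fold change 1.28 ± 0.21, adjusted p = 0.00132). In the 10-day experiment the values were 81.9, 113, 34.2, 64.4 and 99.5 CPM in *Cebpa* fl/fl and 64.4, 103, 116, 107 and 61.4 CPM in knockout mice. In the 10-week experiment they were 108, 133, 366, 148 and 361 CPM against 199.8, 196, 136, 278 and 343 CPM. In both the genotypes overlapped throughout, and the log2 fold changes of 0.22 ± 0.28 (adjusted p = 0.648) and 0.09 ± 0.35 (adjusted p = 0.862) did not pass the test. As for *Cdkn1a*, replicates 3 and 5 were the highest *Cebpa* fl/fl mice after 10 weeks and replicate 3 the lowest after 10 days.

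**Figure D3:**
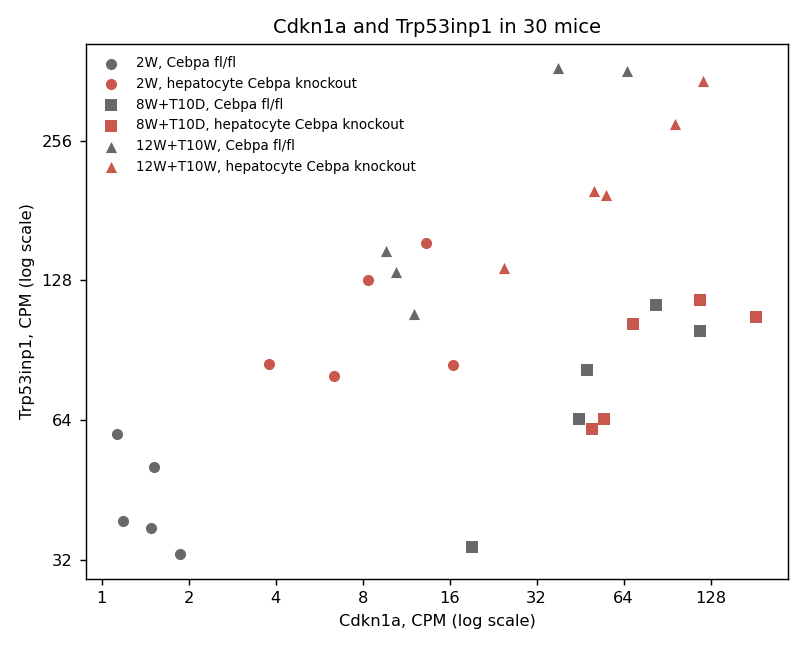
The scatter plot sets the CPM of *Cdkn1a* against the CPM of *Trp53inp1* in all 30 mice on log axes, with a colour for each genotype and a symbol for each experiment (2W, constitutive; 8W+T10D, 10-day; 12W+T10W, 10-week). The constitutive *Cebpa* fl/fl mice lie at the lower left, with 1.14 to 1.87 CPM of *Cdkn1a*, and the 10-week *Cebpa* fl/fl mice are spread from 9.64 to 65.5 CPM of *Cdkn1a*.

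*Gdf15* (ENSMUSG00000038508.7, chr8:70629393-70632456, minus strand) encodes a secreted TGF-beta family cytokine of cell stress whose receptor is in the hindbrain. It was the member that fell in the inducible knockouts. In the 10-day experiment it measured 24.2, 12.5, 25.95, 38.9 and 24.9 CPM in *Cebpa* fl/fl and 9.37, 13.98, 9.97, 13.8 and 14.5 CPM in knockout mice, with *Cebpa* fl/fl replicate 2 inside the knockout range. In the 10-week experiment all knockouts (9.07, 9.70, 11.99, 10.1 and 10.5 CPM) were below all *Cebpa* fl/fl mice (15.7, 12.8, 31.1, 19.4 and 22.5 CPM), as were 19.5% of genes there, against 5.5% in the 10-day experiment, but on TPM the 10-week genotypes overlapped. It fell by 1.03 ± 0.24 (adjusted p = 0.0121) and by 0.94 ± 0.20 (adjusted p = 0.00177) on the log2 scale.

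The fall in *Gdf15* was smaller on TPM, with log2 fold changes of -0.74 (adjusted p = 0.127) after 10 days and -0.49 (adjusted p = 0.0405) after 10 weeks. Only 1 to 8 counts were found per constitutive *Cebpa* fl/fl mouse and 5 to 14 per knockout mouse, too few for the test, and without the low-count filter the log2 fold change was 1.32 (adjusted p = 0.111). The levels there were 0.138 to 1.19 CPM and 0.592 to 1.79 CPM.

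Among the INK4 inhibitors, *Cdkn2c* (ENSMUSG00000028551.14, chr4:109660876-109667189, minus strand), which encodes p18, rose in the 10-week knockout. Its values were 3.68, 3.29, 2.76, 3.90 and 4.95 CPM in *Cebpa* fl/fl and 6.36, 7.76, 8.78, 6.75 and 8.17 CPM in knockout mice, without overlap (log2 fold change 1.06 ± 0.16, adjusted p = 0.000161). In the 10-day experiment it ranged from 2.03 to 5.21 CPM and from 3.56 to 8.39 CPM (0.53 ± 0.28, adjusted p = 0.228), and in the constitutive experiment from 1.70 to 3.73 CPM and from 1.34 to 3.38 CPM (-0.08 ± 0.27, adjusted p = 0.860).

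*Cdkn2b* (ENSMUSG00000073802.5, chr4:89306299-89311039, minus strand), which encodes p15, stayed close to the limit of detection and entered no test within an experiment. The constitutive groups held 1 count each over 5 mice. The 10-day groups held 7 counts in *Cebpa* fl/fl and 14 in knockout mice, a depth-adjusted ratio of 2.02 with an exact 95% interval of 0.764 to 5.92. In the 10-week experiment the counts were 0, 0, 1, 0 and 2 in *Cebpa* fl/fl and 3, 1, 4, 4 and 4 in knockout mice, 3 against 16 in all, a ratio of 5.51 (1.58 to 29.5). Without the low-count filter the 10-week log2 fold change was 1.90 (adjusted p = 0.0760). These intervals cover counting error only and not the spread between mice.

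**Figure D4:**
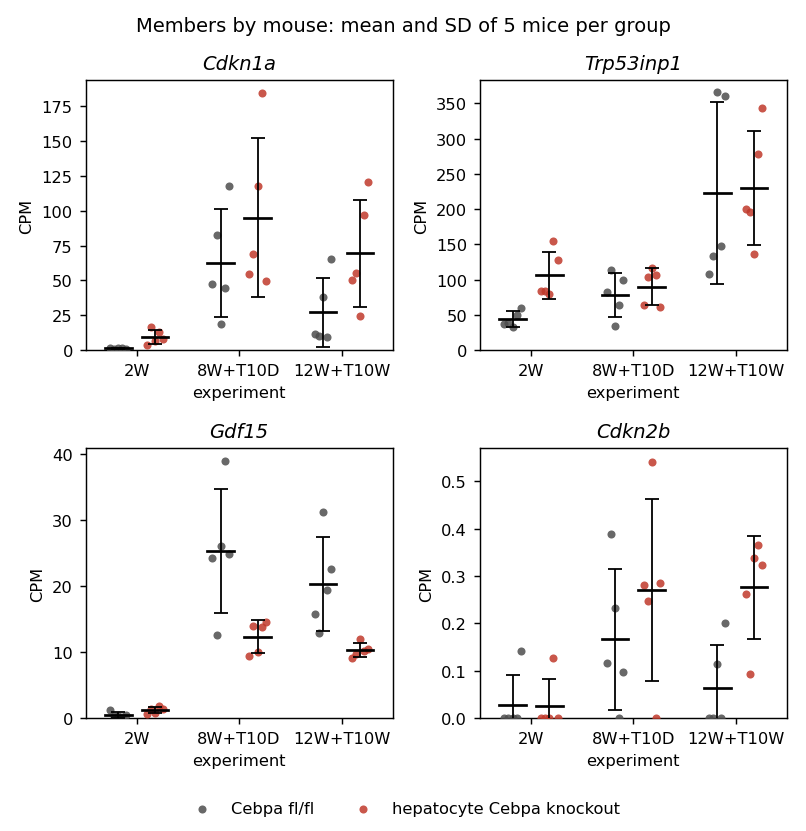
The panels show the CPM of *Cdkn1a*, *Trp53inp1*, *Gdf15* and *Cdkn2b* in each mouse of the 6 groups, with the group mean and SD (5 mice each). *Cdkn1a* and *Trp53inp1* separate the genotypes in the constitutive experiment and overlap in the inducible ones, and *Gdf15* is lower in the 10-week knockouts than in every *Cebpa* fl/fl mouse there.

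Whether the genotype effect differed between experiments was tested as an interaction in a fit of all 30 libraries, which tested 12964 genes. Relative to the constitutive knockout, the effect in the 10-day knockout was higher for *Ccng1* (difference 1.58 ± 0.19, adjusted p = 3.33e-06) and *Bax* (0.87 ± 0.18, adjusted p = 0.00149), which makes 2 higher and 0 lower of the 6 members tested in every experiment. Over all genes 4.45% had a higher and 6.79% a lower effect. *Phlda3*, *Eda2r* and *Gdf15* entered this fit only through the inducible groups, since constitutive mice had 1 to 8, 0 to 8 and 1 to 14 counts of them, so that their differences rest on values near the floor and are not counted. They were 2.28 ± 0.52 for *Phlda3* (adjusted p = 0.00392) and -2.37 ± 0.61 for *Gdf15* (adjusted p = 0.0101). For *Eda2r* the difference of 1.87 ± 0.67 did not pass (adjusted p = 0.0655) but did in DESeq2 (1.89, adjusted p = 0.0205). It also passed without 10-day knockout replicate 1 (2.00, adjusted p = 0.0470) or constitutive knockout replicate 5 (2.24, adjusted p = 0.0367). For *Cdkn1a* it was -2.12 ± 0.97 (adjusted p = 0.158), so that the larger rise in the constitutive knockout was not shown to differ from that after 10 days.

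Between the 10-week and the constitutive knockout, the effect was higher for *Ccng1* (1.59, adjusted p = 1.14e-06), *Cdkn2c* (1.11, adjusted p = 0.0237) and *Bax* (0.96, adjusted p = 0.000172) and lower for *Trp53inp1* (-1.23, adjusted p = 0.0430). These 3 higher and 1 lower of the same 6 members stand beside 13.4% and 17.3% of all genes. With the same limit as above, the differences were 2.80 for *Phlda3* (adjusted p = 0.000186), 2.28 for *Eda2r* (adjusted p = 0.0113) and -2.31 for *Gdf15* (adjusted p = 0.00449). That of *Eda2r* did not pass with the replicate number as a block (2.02, adjusted p = 0.0552). *Trp53inp1* did not pass in DESeq2 (-1.201, adjusted p = 0.0513), with upper quartile scaling (-1.11, adjusted p = 0.0703) or with the replicate number as a block (-0.94, adjusted p = 0.174). It also did not pass in 10 of 20 fits without 1 mouse (-1.42 to -0.95, adjusted p from 0.0179 to 0.122 over the 20). *Cdkn2c* did not pass without constitutive *Cebpa* fl/fl replicate 4 (0.94, adjusted p = 0.0651) or constitutive knockout replicate 6 (0.95, adjusted p = 0.0517). *Mdm2* did not pass (0.39, adjusted p = 0.123) except with upper quartile scaling (0.52, adjusted p = 0.0385) or without 10-week knockout replicate 3 (0.50, adjusted p = 0.0366). *Cdkn1a* did not pass either (-1.37, adjusted p = 0.304). Both sets of differences share the constitutive mice.

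The 10-week and 10-day effects differed by edgeR for 0 of 9 members, beside 4.97% of genes higher and 5.49% lower. None had an unadjusted p under 0.05, the lowest being 0.144, and DESeq2 also called 0 members. The 414 genes more than doubled in both inducible knockouts made up 3.49% of the genes tested in both, and *Ccng1*, *Phlda3* and *Eda2r* were among them.

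The members also differed between the *Cebpa* fl/fl groups, in which diet length, tamoxifen and experiment cannot be told apart. Compared with the constitutive experiment, *Cebpa* fl/fl mice of the 10-day experiment had more *Gdf15* (log2 difference 5.72 ± 0.38, adjusted p = 4.84e-12), *Cdkn1a* (5.41 ± 0.72, adjusted p = 1.08e-06), *Eda2r* (2.42, adjusted p = 4.96e-05), *Phlda3* (1.46, adjusted p = 0.0011) and *Trp53inp1* (0.84, adjusted p = 0.0410). The constitutive *Cebpa* fl/fl mice had 1 to 8 counts of *Gdf15*, 3 to 6 of *Eda2r*, 3 to 8 of *Phlda3* and 8 to 16 of *Cdkn1a*, so that the sizes of these differences rest on values near the floor. *Gdf15*, *Eda2r* and *Phlda3* entered the fit only through the inducible groups. No member was lower, and over all genes 22.2% were higher and 21.5% lower. The *Trp53inp1* difference did not pass in 7 of 20 fits that left out 1 mouse, those without 10-day *Cebpa* fl/fl replicate 1, 2 or 5 or constitutive *Cebpa* fl/fl replicate 1, 2, 3 or 4 (0.67 to 1.05, adjusted p from 0.0114 to 0.117 over the 20). *Cdkn2c* did not pass but did with upper quartile scaling (0.69, adjusted p = 0.0384). It also passed in 5 of 20 fits without 1 mouse, those without 10-day knockout replicate 1, 2 or 5, 10-day *Cebpa* fl/fl replicate 4 or constitutive *Cebpa* fl/fl replicate 4 (0.50 to 0.81, adjusted p from 0.0128 to 0.156 over the 20).

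*Cebpa* fl/fl mice of the 10-week experiment were higher than the same constitutive mice in *Trp53inp1* (2.35, adjusted p = 6.14e-06) and *Mdm2* (0.40, adjusted p = 0.0212). *Gdf15* (5.40, adjusted p = 1.59e-11), *Cdkn1a* (4.22, adjusted p = 6.64e-05), *Eda2r* (1.89, adjusted p = 0.00154) and *Phlda3* (1.19, adjusted p = 0.0085) also passed as higher. The sizes of these 4 differences rest on the few constitutive counts given above. *Gdf15*, *Eda2r* and *Phlda3* again entered the fit only through the inducible groups. Over all genes 19.8% were higher and 19.4% lower. The *Mdm2* difference was 0.37 (adjusted p = 0.0525) without constitutive *Cebpa* fl/fl replicate 2. Between the 10-week and 10-day *Cebpa* fl/fl mice only *Trp53inp1* passed (1.51 ± 0.33, adjusted p = 0.00283), beside 6.31% of genes higher and 5.12% lower. Without 10-week *Cebpa* fl/fl replicate 5, *Cdkn1a* also passed, lower after 10 weeks by -1.84 (adjusted p = 0.0176).

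Levels of different genes are comparable only per transcript length, so the deposited TPM was used to order them. In *Cebpa* fl/fl mice of the constitutive experiment the mean TPM was highest for *Bax* (15.03), followed by *Ccng1* (11.5), *Trp53inp1* (7.64), *Mdm2* (4.52) and *Cdkn2c* (2.45). *Cdkn1a* (0.810), *Phlda3* (0.782), *Gdf15* (0.372), *Eda2r* (0.136) and *Cdkn2b* (0.022) were below 1 TPM. In 10-week knockout mice the order was *Trp53inp1* (70.8 ± 26.1, SD, n = 5), *Cdkn1a* (66.9 ± 37.8), *Bax* (45.1 ± 3.89), *Ccng1* (41.8 ± 7.34) and *Mdm2* (15.8 ± 3.19). Each neighbour in this order differed by less than the larger SD of the pair, except that *Ccng1* exceeded *Mdm2* by more.

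When the 6 groups were ordered by mean CPM, few neighbouring groups were free of overlap. For *Ccng1*, *Bax* and *Eda2r* the break lay between the 10-week knockouts and the 10-day *Cebpa* fl/fl mice, and for *Phlda3* between the 10-day knockouts and the 10-day *Cebpa* fl/fl mice. For *Cdkn1a* it lay between the constitutive knockout and the constitutive *Cebpa* fl/fl mice, and for *Gdf15* between the 10-week knockouts and the constitutive knockouts. All other neighbours in these orders overlapped.

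The genes whose log2 CPM followed the most variable members most closely over the 30 libraries, by Pearson r among 10950 genes, are a description, since the libraries share 6 groups. For *Cdkn1a* they were *Chd9* (r = 0.93), *Vcam1* (r = 0.92) and *Tra2a* (r = 0.92). In the 10 libraries each of the constitutive, 10-day and 10-week experiments, r was 0.90, 0.71 and 0.91 for *Chd9*, 0.85, 0.80 and 0.84 for *Vcam1*, and 0.85, 0.24 and 0.78 for *Tra2a*. For *Eda2r* they were *Marcks* (0.93), *Stk10* (0.92) and *Ifi203* (0.92). Within experiments *Marcks* was at 0.60, 0.77 and 0.83, *Stk10* at 0.17, 0.82 and 0.91, and *Ifi203* at 0.56, 0.74 and 0.88. For *Gdf15* they were *Pcp4l1* (0.96), *Il17ra* (0.95) and *Nod1* (0.93). Within experiments *Pcp4l1* was at 0.74, -0.0032 and 0.85, *Il17ra* at 0.02, 0.78 and 0.75, and *Nod1* at -0.079, 0.80 and 0.90.

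Other genes of the pathway were taken from lists of known p53 targets and regulators. Of 30 further p53 target genes, 22, 25 and 26 were tested in the constitutive, 10-day and 10-week experiments, and 3, 9 and 11 rose and 4, 2 and 6 fell. The share that rose was 13.6%, 36.0% and 42.3%, beside 8.60%, 10.3% and 27.4% of all genes. The share that fell was 18.2%, 8% and 23.1%, beside 8.09%, 6.85% and 23.8%. Of the 4 that fell in the constitutive knockout, 2 (*Gadd45a* and *Sulf2*) had a mean under 10 counts in knockout mice. Both entered the test through the *Cebpa* fl/fl mice, so that nothing is read from the constitutive share that fell. Without the genes that had a mean under 10 counts in *Cebpa* fl/fl mice (*Tnfrsf10b* in both, *Ak1* after 10 weeks), 8 of 24 (33.3%) rose after 10 days and 9 of 24 (37.5%) after 10 weeks. That cut is on the group mean, and genes kept, such as *Pmaip1*, could have single mice under 10 counts. After 10 weeks the lower share was near that of all genes. The median log2 fold changes were -0.02, 0.33 and 0.47. After 10 weeks the TPM scale gave 18 higher and 1 lower of these 26, beside 6284 and 873 of all 12463 genes. After 10 days it gave 4 higher and 0 lower of 25, beside 1185 and 274 of all 11990 genes. *Tnfrsf10b*, a death receptor, passed the test as higher in both inducible knockouts (adjusted p = 0.0421 and 2.16e-05). It had 4 to 11 counts in *Cebpa* fl/fl and 7 to 75 in knockout mice after 10 days, and 0 to 5 against 18 to 50 after 10 weeks, so that it entered the test through the knockouts and the size of its rise rests on values near the floor. *Pmaip1*, which encodes the BH3-only protein NOXA, rose by 1.32 after 10 days (adjusted p = 0.0198). It had 8 to 14 counts per *Cebpa* fl/fl mouse against 14 to 65 there, so that it entered the test partly through the knockouts. *Apaf1*, the scaffold of the apoptosome, rose by 1.43 (adjusted p = 0.000102) and the kinase *Plk2* by 1.58 (adjusted p = 4.49e-05) after 10 weeks. In the constitutive knockout the antiproliferative *Btg2* (0.82, adjusted p = 0.00616) and the kinase *Plk3* (1.204, adjusted p = 0.00248) rose, while *Gadd45a*, a DNA damage response gene, fell from 11 to 38 counts per *Cebpa* fl/fl mouse to 1 to 7 per knockout mouse (adjusted p = 0.00106). The heparan sulfatase *Sulf2* fell there from 104 to 195 counts to 8 to 11 (adjusted p = 1.12e-07). *Ak1*, adenylate kinase, had 2 counts in 1 of the 10-week *Cebpa* fl/fl mice and 164 counts over the 5 knockouts, a ratio of 84.7 with an exact counting interval of 23.1 to 705.

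Of 15 genes for p53 and its regulators, 12, 13 and 12 were tested, and 0, 0 and 3 rose and 2, 1 and 4 fell. After 10 weeks these are 25% and 33.3% of the list, near the 27.4% and 23.8% of all genes there, and nothing is read from the counts. *Trp53* itself rose by 0.41 (adjusted p = 0.00464) after 10 weeks, from 10.2 to 13.2 CPM, with the checkpoint kinase *Chek2* (1.17, adjusted p = 0.000345), while *Mdm4*, the partner of MDM2, fell by 0.44 (adjusted p = 0.00133). *Chek2* had 9 to 17 counts per *Cebpa* fl/fl mouse against 31 to 49 there, so that it entered the test partly through the knockouts. The ubiquitin ligase *Cop1* fell by 0.24 (adjusted p = 0.0457) in the constitutive, by 0.34 (adjusted p = 0.0142) in the 10-day and by 0.38 (adjusted p = 0.00213) in the 10-week knockout. On TPM 7 rose and 0 fell after 10 weeks, beside 6284 and 873 of all 12463 genes. That scale moved the median gene up, so that nothing is read from it about the list. None of the regulators passed on TPM in the other experiments, and in DESeq2 none passed in the constitutive knockout.

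Of 4 further CDK inhibitors, *Cdkn1c* (p57) passed as higher after 10 weeks (1.23, adjusted p = 0.00115) and after 10 days (adjusted p = 0.0216). It had 6 to 17 counts per *Cebpa* fl/fl mouse against 27 to 38 after 10 weeks, and 3 to 11 against 11 to 57 after 10 days. The knockouts thus helped it into both tests, and the sizes rest on few counts. *Cdkn1b* (p27) was at 0.18 in the constitutive knockout (adjusted p = 0.5001). Of 12 G1 cyclins, CDKs and pocket proteins, 0, 2 and 7 rose and 1, 0 and 1 fell. The 7 are 58.3% of the list beside 27.4% of all genes, and 1 of them, *Ccne1*, had 4 to 12 counts per *Cebpa* fl/fl mouse, while the 2 are 16.7% beside 10.3%. *Ccnd1*, cyclin D1, rose after 10 weeks from 36.7 to 183 CPM (2.36, adjusted p = 4.04e-07), and *Cdk6* fell by 0.42 in the constitutive knockout (adjusted p = 0.0480). *Rbl1*, a pocket protein, and *E2f1* rose after 10 days (0.91, adjusted p = 0.0138, and 0.77, adjusted p = 0.0390).

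Proliferation genes moved beside the p53 targets. Of 20 such genes, 8, 19 and 20 were tested and 1, 12 and 19 rose, with 0 lower in each, beside 8.60%, 10.3% and 27.4% of all genes higher. Of those that rose, 1, 1 and 11 had a mean under 10 counts in *Cebpa* fl/fl mice, so that they entered the test through the knockouts in which they were high, and the 10-week count of 19 is a description of the genes that passed the filter. After 10 days *Ccnb1*, cyclin B1, passed as higher (1.42, adjusted p = 0.0314) with 2 to 30 counts in *Cebpa* fl/fl and 24 to 65 in knockout mice. The mitotic kinase *Plk1* passed as higher too (adjusted p = 0.00252), with 1 to 10 counts in *Cebpa* fl/fl and 19 to 38 in knockout mice. After 10 weeks *Ccnb1* had 0 to 14 counts against 33 to 65, and *Cdk1* 3 to 20 against 52 to 103. In the constitutive knockout *Top2a* was the gene that passed as higher (adjusted p = 0.0100), with 4 to 9 counts against 9 to 33. Whether the rise of p53 targets is tied to dividing cells was not tested.

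Of 12 genes of the BCL2 family other than *Bax*, 9, 11 and 11 were tested and 0, 2 and 5 rose, with 1 lower after 10 weeks. These are 18.2% higher after 10 days beside 10.3% of all genes, and 45.5% higher and 9.09% lower after 10 weeks beside 27.4% and 23.8%. *Bcl2l11*, which encodes the BH3-only protein BIM, rose after 10 days (0.63, adjusted p = 0.0310). The antiapoptotic *Bcl2* rose by 1.52 after 10 weeks, from 9 to 23 counts per *Cebpa* fl/fl mouse to 40 to 61 per knockout mouse. *Bcl2a1b* rose by 1.88 after 10 days and passed as higher after 10 weeks with 2 to 15 against 53 to 90 counts, a gene that entered that test through the knockouts, and it belongs to a family of near-identical genes among which reads may be split. Of 14 targets of the integrated stress response, which also includes *Gdf15* among its known targets, 3, 1 and 4 rose and 1, 0 and 2 fell of 7, 11 and 12 tested. In the constitutive knockout 42.9% were higher and 14.3% lower, beside 8.60% and 8.09% of all genes. After 10 days 9.09% were higher beside 10.3% of all genes. After 10 weeks 33.3% were higher and 16.7% lower, beside 27.4% and 23.8%. Nothing is read about the list from the counts of the inducible experiments. *Ddit4* (1.52, adjusted p = 0.00400) and *Ppp1r15a* (0.91, adjusted p = 0.00226) rose and the pseudokinase *Trib3* fell by 1.26 (adjusted p = 0.00768) in the constitutive knockout. After 10 weeks *Chac1* fell by 1.28. *Psat1* and *Phgdh*, enzymes of serine synthesis, passed as higher there with 4 to 7 against 21 to 42 counts and 0 to 6 against 11 to 28 counts, so that both entered the test through the knockouts.

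Of 5 ligands and receptors of the members, 2 had enough counts in each experiment. *Eda*, the gene of ectodysplasin, fell by 0.94 after 10 days (adjusted p = 0.0233), from 2.58 to 1.33 CPM, and the receptor gene *Tnfrsf19* fell by 0.61 in the constitutive knockout (adjusted p = 0.0203). Neither fall passed on TPM.

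**Figure D5:**
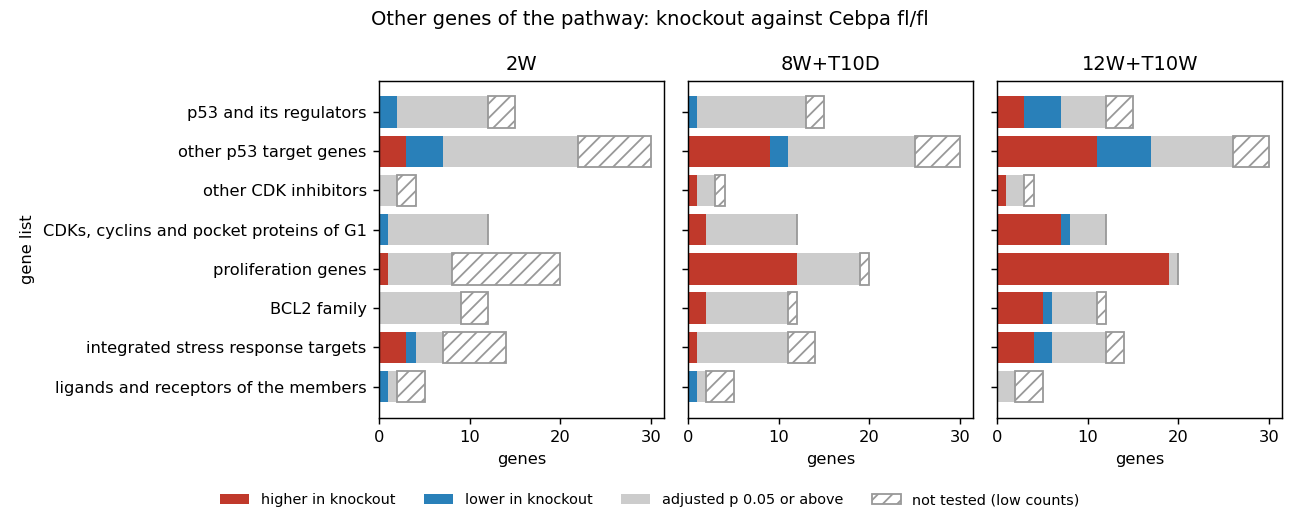
The stacked bars count, for each list and experiment, the genes that were higher, lower, not past the test or not tested in knockout against *Cebpa* fl/fl mice (edgeR, adjusted p under 0.05). In the constitutive, 10-day and 10-week experiments 1, 12 and 19 proliferation genes were higher, of 8, 19 and 20 tested. Of further p53 targets 3, 9 and 11 were higher, of 22, 25 and 26 tested. Over all genes tested 8.60%, 10.3% and 27.4% were higher. Of the 19 proliferation genes higher after 10 weeks, 11 had a mean under 10 counts in *Cebpa* fl/fl mice.

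Markers of liver cell types moved with the genotype as well, and in whole liver fewer cells of a type and less RNA per cell cannot be told apart. The summed CPM of 8 hepatocyte markers was 113050 to 136420 in 10-week *Cebpa* fl/fl and 68081 to 77265 in knockout mice, and 127500 to 160520 against 85123 to 140890 in the 10-day experiment, with 4 of 8 markers lower and 0 higher in each. *Alb* was lower by -1.10 and *Hnf4a* by -0.96 after 10 weeks. In the constitutive experiment 0 of 8 hepatocyte markers passed the test in edgeR. Beside these and the marker counts below, 8.60%, 10.3% and 27.4% of all genes were higher in the 3 experiments. The shares of all genes that were lower were 8.09%, 6.85% and 23.8%. The sum over 8 cholangiocyte markers was mostly *Spp1*, the gene of osteopontin, which other liver cells can also express. *Spp1* was 30.7 to 71.7 CPM in constitutive *Cebpa* fl/fl and 367 to 658 CPM in knockout mice, 35.3 to 52.96 against 137 to 345 CPM in the 10-day experiment, and 37.3 to 51.3 against 693 to 975 CPM in the 10-week experiment. The other 7 markers summed to 5.25 to 9.80 against 5.37 to 12.3 CPM, 8.23 to 16.6 against 11.8 to 18.4 CPM, and 6.89 to 15.8 against 50.5 to 79.1 CPM, and were thus apart between genotypes in the 10-week experiment alone. With *Spp1* included, 1 of 3, 4 of 7 and 7 of 8 tested markers were higher and 0, 1 and 1 lower. After 10 days *Epcam* passed as higher (2.57, adjusted p = 0.000231, from 0.488 to 2.93 CPM), but the size of its rise rests on *Cebpa* fl/fl values near the floor. *Prom1* (1.63, adjusted p = 0.00473) and *Sox9* (0.997, adjusted p = 0.0451) were higher there too. *Krt23* was lower (-1.30, adjusted p = 0.0388), and *Krt19* (-0.51, adjusted p = 0.417) and *Krt7* (-0.19, adjusted p = 0.782) did not pass. After 10 weeks *Krt19* (2.75, adjusted p = 6.15e-06) and *Krt7* (2.898, adjusted p = 2.13e-05), keratins of bile duct cells, were higher too. *Sox9*, *Krt19* and *Krt7* are named after their values were seen.

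Stellate cell and fibroblast markers were higher for 0, 2 and 8 of 8, and summed to 296 to 371 against 1042.7 to 1290.9 CPM in the 10-week experiment. Macrophage markers were higher for 2 of 7, 5 of 8 and 5 of 8, with *Timd4* (-2.72) and *Marco* (-2.35) lower after 10 weeks, where the sums were 178 to 537 against 367 to 504 CPM. Lymphocyte markers were higher for 0 of 1, 0 of 3 and 3 of 4 tested of 9, and neutrophil markers for none, 0 of 2 and 2 of 2 tested of 5. Of endothelial markers 0 were higher and 0, 1 and 2 of 8 lower. The 2 after 10 weeks are near the 23.8% lower of all genes there, so that nothing is read from them. Among all genes 10.3% were higher and 6.85% lower after 10 days, and 27.4% were higher after 10 weeks. *Ly6g* was at 0 in both constitutive groups and in the 10-day *Cebpa* fl/fl mice, and *Retnlg* in the constitutive knockouts, and no marker of the other lists was at 0 in a whole group. The part of these changes in the results for the p53 targets was not tested.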

How the data were processed

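Poly(A) RNA of 30 mouse livers was sequenced, 1 stranded library per mouse. The submitters' processing notes name Trimmomatic 0.36, STAR 2.5.1, Picard 1.84, RSEM 1.2.22, DESeq2 and mm10. The authors deposited RSEM expected counts per gene and library and a table of the same values (the 2 agreed exactly, 3.25% of values were not whole), which were rounded to whole counts here. The deposited TPM (length-scaled transcript abundance, from RSEM) was used to compare genes. Gene IDs were those of GENCODE M21. Depth was 7996128 to 10257366 counts, and gene levels of a few counts are given as counts.

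For each experiment, knockout and *Cebpa* fl/fl mice entered the quasi-likelihood test of edgeR 4.0.16 (R 4.3.3) after TMM scaling and filterByExpr, with Benjamini-Hochberg adjustment over all genes tested. Interactions and *Cebpa* fl/fl groups were compared in 1 fit of 30 libraries. Calls needed an adjusted p under 0.05, and a fold over 2 where stated. The prior count was 2. Every member is named. From each other list, up to 4 tested genes past the test with the largest absolute log2 fold change per experiment could be named, or the gene with the lowest p where none passed, and for the 3 members with the widest range the 3 genes of highest Pearson r. The members and lists were chosen with earlier results of these data known. Scripts were tested on simulated data.

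Alternatives were no low-count filter, upper quartile scaling, DESeq2 1.42.0, 1 joint fit, the replicate number as a block, and leaving out each mouse. Chosen after seeing the data, limma 3.58.1 was run on log2(TPM + 0.5). P-values set each effect against the spread between mice within these experiments. Each setting is represented by a single experiment, so that comparisons between experiments do not cover variation from experiment to experiment. Other data of the study were not analysed here.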

Additional observations from a re-analysis of the deposited data

Results flagged for a closer look

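In 8 of 60 combinations of member and group, 1 mouse lay apart from the other four by Dixon's test (critical value 0.71). In 2 of them, both *Cdkn2b*, a single mouse held the only count, so that the test says nothing, and 6 of the other 58 remain, where chance alone reaches about 1 of 20 groups. In the constitutive experiment these were *Gdf15* in *Cebpa* fl/fl replicate 1 (1.19 CPM), *Eda2r* in *Cebpa* fl/fl replicate 4 (0.828 CPM), *Ccng1* in knockout replicate 5 (35.1 CPM) and *Bax* in knockout replicate 2 (7.57 CPM, the lowest of its group). *Cdkn2b* was found there in *Cebpa* fl/fl replicate 5 (0.142 CPM) and knockout replicate 5 (0.128 CPM), in each case from 1 count. In the 10-day experiment *Bax* was high in knockout replicate 2 (23.9 CPM) and *Phlda3* in *Cebpa* fl/fl replicate 1 (3.13 CPM).

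The effect of the knockout differed between experiments, by the interaction test, for some of the 6 members tested in every experiment. From the constitutive to the 10-day experiment the log2 difference was 1.58 for *Ccng1* and 0.87 for *Bax*. From the constitutive to the 10-week experiment it was 1.11 for *Cdkn2c*, 1.59 for *Ccng1*, 0.96 for *Bax* and -1.23 for *Trp53inp1*, where 13.4% of all genes had a higher and 17.3% a lower effect (4.45% and 6.79% in the 10-day comparison). The *Trp53inp1* difference did not pass in DESeq2 (adjusted p = 0.0513), with upper quartile scaling (0.0703), with the replicate block (0.174) or in 10 of 20 fits without 1 mouse, and that of *Cdkn2c* did not in 2 of 20. The Cre line, diet length and tamoxifen differ together between these experiments and cannot be told apart. *Phlda3*, *Eda2r* and *Gdf15* had 0 to 14 counts per mouse in the constitutive experiment and entered the fit through the inducible groups, so that they are not counted among these members. Their fitted values, 2.28 and 2.80 for *Phlda3*, -2.37 and -2.31 for *Gdf15* (10-day and 10-week) and 2.28 for *Eda2r* (10-week), rest on levels near the floor. The *Eda2r* value did not pass with the replicate block (2.02, adjusted p = 0.0552).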

How the results depend on the processing

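Genotype effects of the members past the test kept their direction under every alternative that was run, and those on count data kept their side of the threshold except *Cdkn1a* after 10 weeks. On TPM, 0 members were past the test as lower in the constitutive and 0 in the 10-day knockout (1 each in the main analysis), and 0 were called lower after 10 days. Upper quartile scaling also left 0 called lower after 10 days, and it moved the median of all genes in the 10-week against constitutive interaction to 0.12. The members with a lower effect in that interaction were 1 with upper quartile scaling and 1 with DESeq2, against 2 when *Gdf15*, near the floor in constitutive mice, is counted. The direction of 2 small effects turned, *Cdkn2c* in the constitutive knockout (0.056 with the replicate block) and *Mdm2* in the 10-week against 10-day interaction (0.028 with upper quartile scaling). The cause was not tested.

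Without 1 mouse, members called higher after 10 weeks ranged from 3 (without *Cebpa* fl/fl replicate 2 or 3) to 5 and those called lower from 0 to 1 (1 without knockout replicate 3 or *Cebpa* fl/fl replicate 1 or 2). Those called lower after 10 days ranged from 0 (without knockout replicate 1 or 3 or *Cebpa* fl/fl replicate 4) to 1. The lower effects in the 10-week against constitutive interaction ranged from 1 to 2, and members lower in 10-week than in 10-day *Cebpa* fl/fl mice from 0 to 1. Small effects that turned ranged from -0.21 to 0.073 for *Cdkn2c* in the constitutive and from -0.11 to 0.32 for *Trp53inp1* in the 10-week knockout. For the 10-week against 10-day interaction the ranges were -0.14 to 0.061 (*Mdm2*), -0.085 to 0.13 (*Ccng1*), -0.12 to 0.30 (*Gdf15*) and -0.34 to 0.12 (*Trp53inp1*). In *Cebpa* fl/fl mice they were -0.073 to 0.089 for *Ccng1* (10-day against constitutive), -0.019 to 0.15 for *Bax* (10-week against constitutive) and -0.27 to 0.012 for *Cdkn2c* (10-week against 10-day).

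Replicate numbers did not pair the mice: same-numbered deviations over 2000 genes correlated between -0.324 and 0.217, and the same-numbered mouse was the best match in 0, 1 and 1 of the pairs in the 3 experiments. With the replicate block, 0 members were called lower after 10 days and 1 had a lower effect in the 10-week against constitutive interaction, where *Trp53inp1* was at -0.94 (adjusted p = 0.174) and *Eda2r* at 2.02 (adjusted p = 0.0552). Depth limited *Cdkn2b* throughout and *Gdf15*, *Phlda3* and *Eda2r* in the constitutive experiment.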
